A study of Mus musculus with 6 samples.

Results

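The axon guidance ligands and receptors described here are 68 of the 53379 genes listed in RNA profiles of small extracellular vesicles from mouse cortical neurons. They were chosen by gene symbol among the protein-coding genes of GENCODE release M21, without use of their levels. The set holds 20 semaphorins, 9 plexins, 8 ephrins, 14 Eph receptors, 7 genes of the netrin system (Ntn1, Ntn4, Dcc and Unc5a to Unc5d), 6 genes of the Slit and Robo families, and 4 genes of collapsin response mediator proteins (CRMPs), Dpysl2 to Dpysl5. The related Crmp1 falls outside the choice of symbols and is given among the partner genes. By role, 33 are ligands, 31 are receptors and 4 are intracellular. The same choice of symbols covers 69 annotated genes, and Ntn3 was not analysed here.

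Small extracellular vesicles are released by cells and enclose some of their RNA. HypEV are the vesicles of wild-type (WT) embryonic cortical neurons whose treatment is labelled OGD/R and which the series calls hypoxic. NorEV are the vesicles of WT embryonic cortical neurons labelled control and called normoxic. Each group has 3 libraries of total RNA. The labels do not spell out OGD/R, and they do not give the embryonic day, the isolation of the vesicles or whether the libraries of a group came from separate cultures. The p-values below therefore rest on a spread between libraries that may be purely technical.

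Axon guidance genes steer growing axons and later shape dendrites and synapses. Semaphorins signal through plexins, with neuropilins as co-receptors for most secreted class 3 members, and mainly repel growth cones. Ephrins are held on the membrane and signal into the Eph-bearing cell and back into their own cell. Netrin 1 attracts axons through Dcc and repels them through Unc5 receptors, Slits repel them through Robo receptors, and CRMPs relay semaphorin signals to microtubules inside the growth cone. Members such as Ephb2, Dcc and Sema7a are also known in synapses of the maturing cortex.

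Many members are close paralogs, so their coding sequences were compared first, because short reads that fit several genes can be split or lost in counting. Among 2278 pairs of members, the longest identical coding run was 38 bases, between the Eph receptors Ephb1 and Ephb3, and 7 pairs shared a run of at least 30 bases. The longest runs of the Eph receptors, plexins and CRMPs are shown because levels within these families are compared below. The stretches come from GENCODE M21 transcripts (GRCm38), run 5′ to 3′ on the coding strand and carry the shared run in capitals between 30 bases on each side.
Ephb1: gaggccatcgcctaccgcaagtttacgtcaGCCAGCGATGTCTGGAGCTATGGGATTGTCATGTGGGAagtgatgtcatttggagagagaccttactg
Ephb3: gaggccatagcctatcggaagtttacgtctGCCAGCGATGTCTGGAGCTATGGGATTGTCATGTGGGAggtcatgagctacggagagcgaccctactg
Plxna1: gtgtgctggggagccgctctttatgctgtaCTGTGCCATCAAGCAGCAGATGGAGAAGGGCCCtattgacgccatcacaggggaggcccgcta
Plxna4: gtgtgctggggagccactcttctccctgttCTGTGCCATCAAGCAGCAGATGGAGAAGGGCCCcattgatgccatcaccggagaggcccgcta
Dpysl2: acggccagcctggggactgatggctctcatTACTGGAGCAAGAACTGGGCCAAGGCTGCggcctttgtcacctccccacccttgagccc
Dpysl4: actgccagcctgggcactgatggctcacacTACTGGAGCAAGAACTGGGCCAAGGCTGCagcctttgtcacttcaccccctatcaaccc

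The run of Ephb1 lies in exon 13 at chr9:101936118-101936155 on the minus strand, and that of Ephb3 in exon 13 at chr16:21221690-21221727 on the plus strand. Over the 98 bases shown, 85 were identical between these genes. The run of Plxna1 and Plxna4 was 33 bases (chr6:89324622-89324654 and chr6:32181870-32181902, both on the minus strand), within a stretch of 93 bases of which 83 were identical. Dpysl2 (chr14:66815503-66815531, minus strand) and Dpysl4 (chr7:139096224-139096252, plus strand) shared 29 bases, and 77 of the 89 shown were identical. How the authors' counting handled reads that fit several genes is not given in the sources used here. Exons of 2 members overlapped another gene on the same strand, by 1.38% of exon bases in Plxnc1 and 1.35% in Sema4a. On the opposite strand 13 members were overlapped, the largest overlaps being 14.1% in Efna3, 10.7% in Plxna1 and 10.5% in Efna4. Whether the counting kept the strands apart is not given either.

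The authors deposited FPKM, a measure of fragments on a gene relative to its length and to the size of the library. From the steps between low values, depth on genes was 1320916 to 2141611 fragments per HypEV library and 1092724 to 1494499 per NorEV library. The short ribosomal-RNA-like entry Gm23935 held 49.5%, 1.95% and 24.4% of these fragments in HypEV 1, 2 and 3, and 4.31%, 0.554% and 0.297% in NorEV 1, 2 and 3. FPKM divides by all of these fragments, this entry included. All 12 pan-neuronal markers, among them Tubb3 and Map2, were above 0 in all libraries, with a median of 8.44 ± 2.25 FPKM in HypEV and 9.05 ± 1.66 FPKM in NorEV (SD of library medians, n = 3 each). Of 10 markers of liver, heart, muscle and other non-neural tissue, 8 were also above 0 in all libraries, with medians of 8.22 ± 4.60 FPKM in HypEV and 10.8 ± 0.856 FPKM in NorEV. Markers of tissues that such a culture should lack thus stood at levels like those of neuronal markers. Astrocyte markers had medians of 7.40 ± 3.07 FPKM in HypEV and 8.83 ± 0.165 FPKM in NorEV, and all 6 were above 0 throughout. Microglial markers had medians of 6.98 ± 1.31 FPKM in HypEV and 8.84 ± 1.93 FPKM in NorEV. Markers of the oligodendrocyte lineage (4 of 6) and of progenitors (all 5) were also above 0 throughout. Endothelial and mural markers had medians of 5.77, 13.5 and 5.83 FPKM in HypEV 1, 2 and 3. In NorEV 1, 2 and 3 they were 5.88, 16.01 and 15.4 FPKM. HypEV 1, HypEV 3 and NorEV 1 were thus lowest, as they were in the medians of all protein-coding genes. The part of these cell types in the levels below was not tested. Fewer vesicles from a cell type and less RNA per vesicle cannot be told apart in such bulk libraries.

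Reads of guidance genes of all families were counted in both kinds of vesicle. Of the 408 member values, 405 were above 0, and 66 of 68 members (97.1%) were above 0 in every library, against 82.4% of all protein-coding genes. The latter include 589 genes at 0 in all libraries. Of the partner genes described below, 98.6% were above 0 in every library, so this was not particular to the members. The ligand gene Efna1 was at 0 in HypEV 3, and Efna2 was at 0 in HypEV 1 and NorEV 1. A member held a median of 49, 67 and 41 reads in HypEV 1, 2 and 3, and of 45, 60 and 71 reads in NorEV 1, 2 and 3, with a range over all libraries of 0 to 243. The 243 belongs to Dcc in NorEV 2 and is rounded, because Dcc was not whole reads in all libraries. A count of 0 allows up to 3 reads. Such counts leave single members open to large counting error.

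The members as a set lay close to the middle of protein-coding genes. Their median was 3.83, 9.07 and 5.25 FPKM in HypEV 1, 2 and 3, and 6.89, 7.21 and 9.18 FPKM in NorEV 1, 2 and 3. Medians over all protein-coding genes were 3.53, 8.22 and 5.05 FPKM in the HypEV libraries and 6.72, 7.24 and 8.21 FPKM in the NorEV libraries. Per library, 36, 42 and 38 of the 68 members were above that median in HypEV and 35, 33 and 37 in NorEV. The library medians of members averaged 6.05 ± 2.71 FPKM in HypEV and 7.76 ± 1.24 FPKM in NorEV (SD, n = 3 each), and the ranges of the groups overlapped, with HypEV 2 inside the NorEV range.

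**Figure D1:**
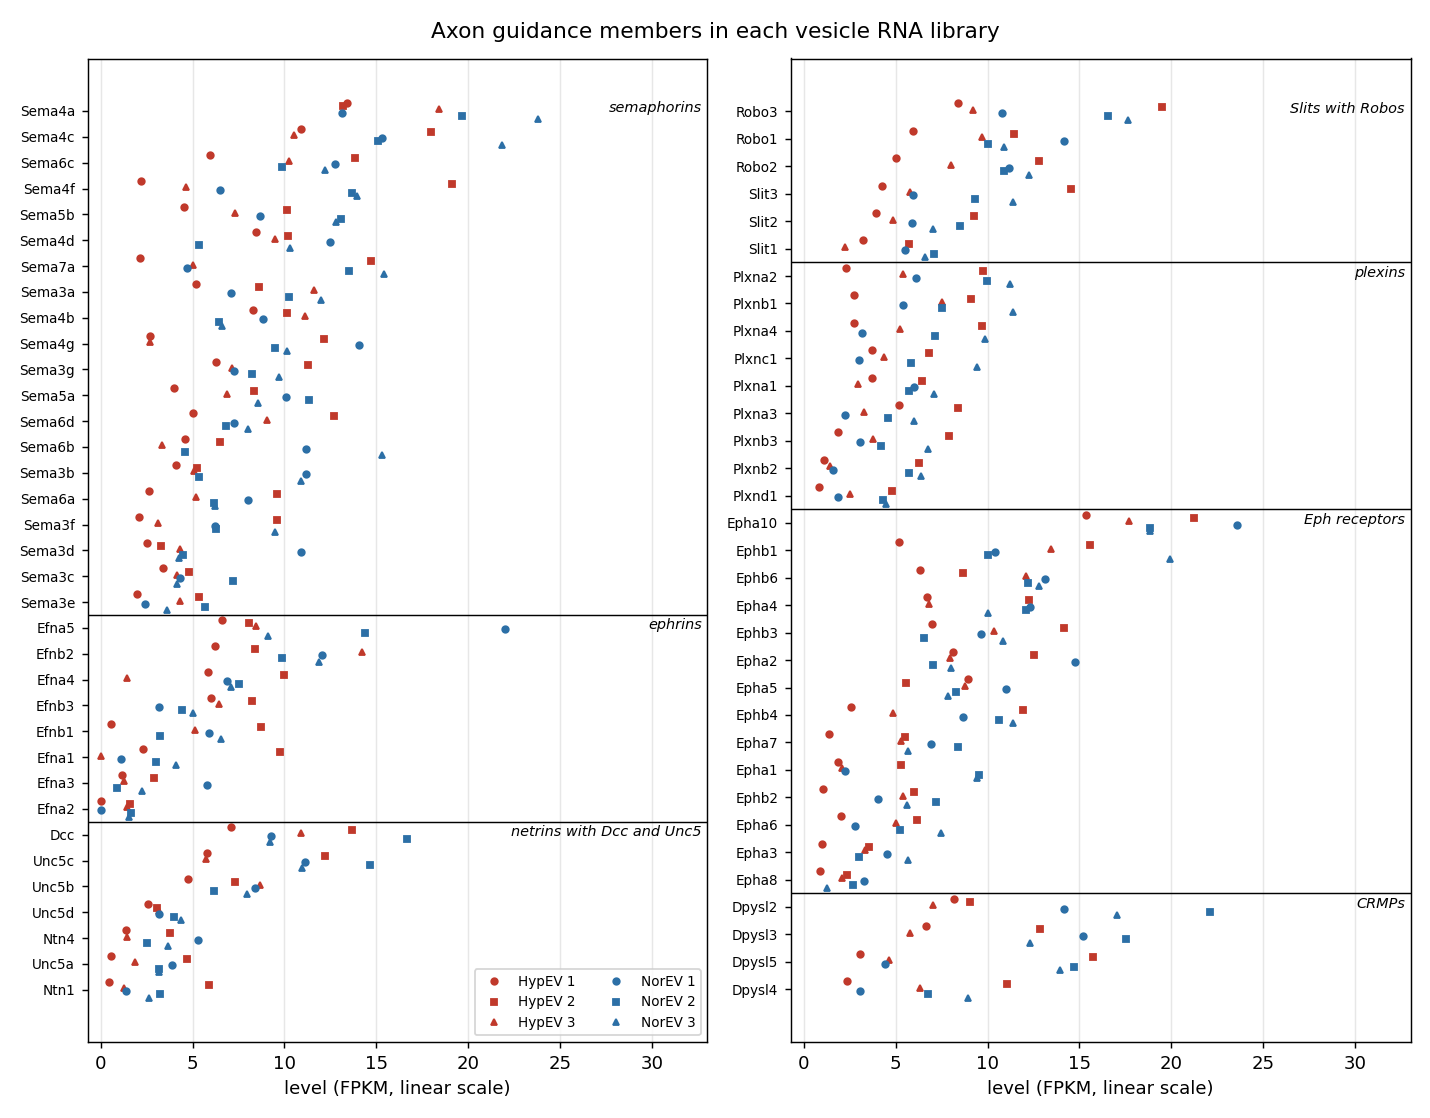
Level of each of the 68 members in each library, in FPKM on a linear axis, with HypEV libraries in red and NorEV libraries in blue and families separated by lines. Within most members the HypEV 1 point lies furthest left and HypEV 2 lies among or above the NorEV points; Epha10 is highest on average, at 19.2 FPKM.

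Among the ligands, semaphorins held the highest levels. Sema4a, a membrane-bound class 4 semaphorin known from immune and retinal cells, had 13.4, 13.2 and 18.4 FPKM in HypEV 1, 2 and 3, and 13.1, 19.6 and 23.8 FPKM in NorEV 1, 2 and 3. Sema4c, a class 4 ligand of plexin B2, had 10.9, 18 and 10.5 FPKM in HypEV and 15.3, 15.1 and 21.8 FPKM in NorEV. In both genes the groups overlapped. The secreted class 3 semaphorins, whose founding member Sema3a collapses growth cones, had lower mean levels, the highest being 9.13 FPKM for Sema3a. Sema3e, which binds Plxnd1 directly, was the lowest semaphorin at 1.97, 5.34 and 4.30 FPKM in HypEV and 2.40, 5.67 and 3.61 FPKM in NorEV.

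Ephrins ran from 1.05 FPKM for Efna2 to 11.4 FPKM for Efna5. Efna5, a glycolipid-anchored ephrin that helps to map thalamic and retinal axons, was the highest of the family. Efna2 was the lowest of all members, with 0, 5 and 4 reads in HypEV 1, 2 and 3, and 0, 5 and 5 reads in NorEV 1, 2 and 3. Ntn1, the gene of the attractant netrin 1, was also low, at 0.477, 5.89 and 1.29 FPKM in HypEV and 1.4, 3.25 and 2.62 FPKM in NorEV. Of the Slit ligands, Slit1 was lowest, at 3.21, 5.73 and 2.27 FPKM in HypEV and 5.48, 7.11 and 6.61 FPKM in NorEV.

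Among the receptors, Epha10 was the highest member of the whole set. This Eph receptor, whose kinase is thought to be inactive, had 15.3, 21.2 and 17.7 FPKM in HypEV 1, 2 and 3, and 23.6, 18.8 and 18.8 FPKM in NorEV 1, 2 and 3. Its mean over the libraries stood at the 92.3 percentile of protein-coding genes. Robo3, which lets commissural axons cross the midline, had 8.40, 19.5 and 9.24 FPKM in HypEV and 10.8, 16.6 and 17.7 FPKM in NorEV. Ephb1, a receptor for B-type ephrins, had 5.20, 15.6 and 13.5 FPKM in HypEV and 10.4, 10.01 and 19.9 FPKM in NorEV. For all 3 receptors the groups overlapped.

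Dcc, the netrin receptor, was well above its ligand Ntn1 on this length-scaled measure, at 7.07, 13.7 and 10.9 FPKM in HypEV and 9.29, 16.7 and 9.23 FPKM in NorEV. Dcc exceeded Ntn1 in each of the 6 libraries. Plexins were among the lower receptors: their means over all libraries ran from 3.13 FPKM for Plxnd1 to 7.48 FPKM for Plxna2, a receptor of semaphorins 3 and 6. Epha8 was the lowest receptor, at 0.892, 2.35 and 2.09 FPKM in HypEV and 3.30, 2.70 and 1.28 FPKM in NorEV. The CRMP genes ran from 6.40 FPKM for Dpysl4 to 12.9 FPKM for Dpysl2.

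Guidance genes together held a small share of the fragments. Members held 3472, 5150 and 3161 reads in HypEV 1, 2 and 3, which is 0.162% (95% Wilson interval 0.157 to 0.168), 0.356% (0.347 to 0.366) and 0.239% (0.231 to 0.248) of fragments counted on genes. They held 3205, 4705 and 5254 reads in NorEV 1, 2 and 3, which is 0.293% (0.283 to 0.304), 0.333% (0.324 to 0.343) and 0.352% (0.342 to 0.361). The intervals cover counting error only. HypEV 1 and 3 were below all NorEV libraries, and HypEV 2 was above NorEV 3 by less than the counting error. The mean share was 0.253 ± 0.0977% in HypEV and 0.326 ± 0.0297% in NorEV (SD, n = 3 each).

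The lower mean of HypEV was not present once Gm23935 and its near-identical copies (4 entries in all) were left out of the denominator. Of the remaining fragments, members held 0.334 ± 0.0258% in HypEV and 0.331 ± 0.0232% in NorEV. Of fragments on protein-coding genes, they held 0.430 ± 0.0279% in HypEV and 0.425 ± 0.0284% in NorEV. Both differences between group means were smaller than the SD of either group. The libraries still differed. Outside the family the shares were 0.321, 0.363 and 0.317% in HypEV 1, 2 and 3, and 0.307, 0.335 and 0.353% in NorEV 1, 2 and 3. Of protein-coding fragments they were 0.410, 0.462 and 0.418% in HypEV, and 0.395, 0.429 and 0.452% in NorEV. With both denominators HypEV 1, HypEV 3 and NorEV 1 were below the other libraries, and the cause was not tested.

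**Figure D2:**
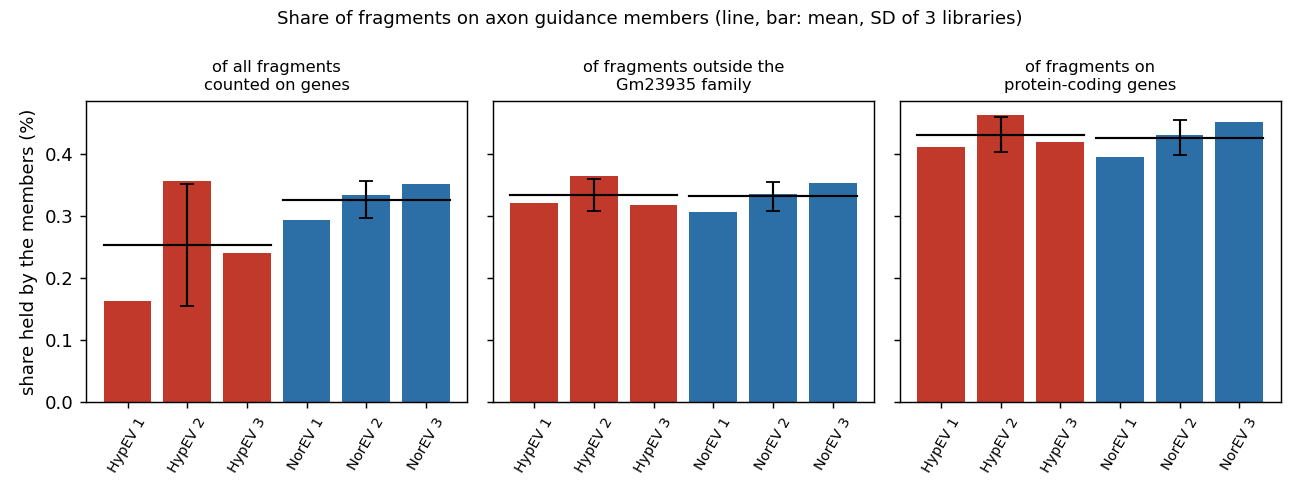
Share of fragments on the 68 members in each library (bars), in percent of all fragments counted on genes, of those outside the Gm23935 family, and of those on protein-coding genes. Lines and error bars are group means and SD of 3 libraries. The means are 0.253% in HypEV and 0.326% in NorEV in the left panel and 0.334% and 0.331% in the middle one.

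The comparison of HypEV with NorEV asks which vesicle RNAs differ with the treatment of the neurons. No guidance gene passed the test. It was limma on log2(FPKM + 1), adjusted after Benjamini and Hochberg over 44125 genes that averaged 1 FPKM or more, with a threshold of 0.05. All 68 members were tested, 0 passed, and the smallest adjusted p among them was 0.720. Over all tested genes 7 passed (0.0159%), and over the 20356 tested protein-coding genes 0 passed. The count of 7 was 71 (0.163%) without HypEV 2, 2 without HypEV 1 or without NorEV 1, and 0 without HypEV 3, NorEV 2 or NorEV 3; no member passed in any of these fits. At an unadjusted p under 0.05 limma gave 1 member, Dpysl2, which is 1 of 68 against 6.76% of all tested genes and 4.41% of protein-coding ones. Leaving out HypEV 2 raised that count to 7 members (Sema4f, Dpysl2, Dpysl3, Sema4g, Ephb4, Sema3f and Unc5c), against 15.6% of all tested genes, while leaving out HypEV 3, NorEV 2 or NorEV 3 gave 0. With limma-voom on recovered reads it was 2 members, Efnb3 and Sema4b, both higher in HypEV, against 7.12% of the genes tested there.

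Most members were lower in HypEV, as were most genes. The log2 fold change was below 0 for 62 members and above 0 for 6, against 74.9% below 0 over all tested genes and 80.5% over protein-coding ones. Its median was -0.36 for members, -0.44 for all tested genes and -0.42 for protein-coding genes. With each library centred on the median of its tested genes, 40 members were higher and 28 lower in HypEV, and 50.5% of all tested genes and 52.4% of protein-coding ones were higher. With limma-voom 34 of the 62 members tested were higher and 28 lower. There the median log2 fold change was 0.04 for members and -0.12 for all genes tested. The split also rested on single libraries: without HypEV 1, 26 members were higher and 42 lower, with a median log2 fold change of -0.12 for members and -0.20 for all tested genes. Without HypEV 2 these medians were -0.68 and -0.73. Adding 1 FPKM before taking logs makes the fold changes of low genes smaller than they are. Their standard errors ran from 0.37 to 0.93 among the members.

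**Figure D3:**
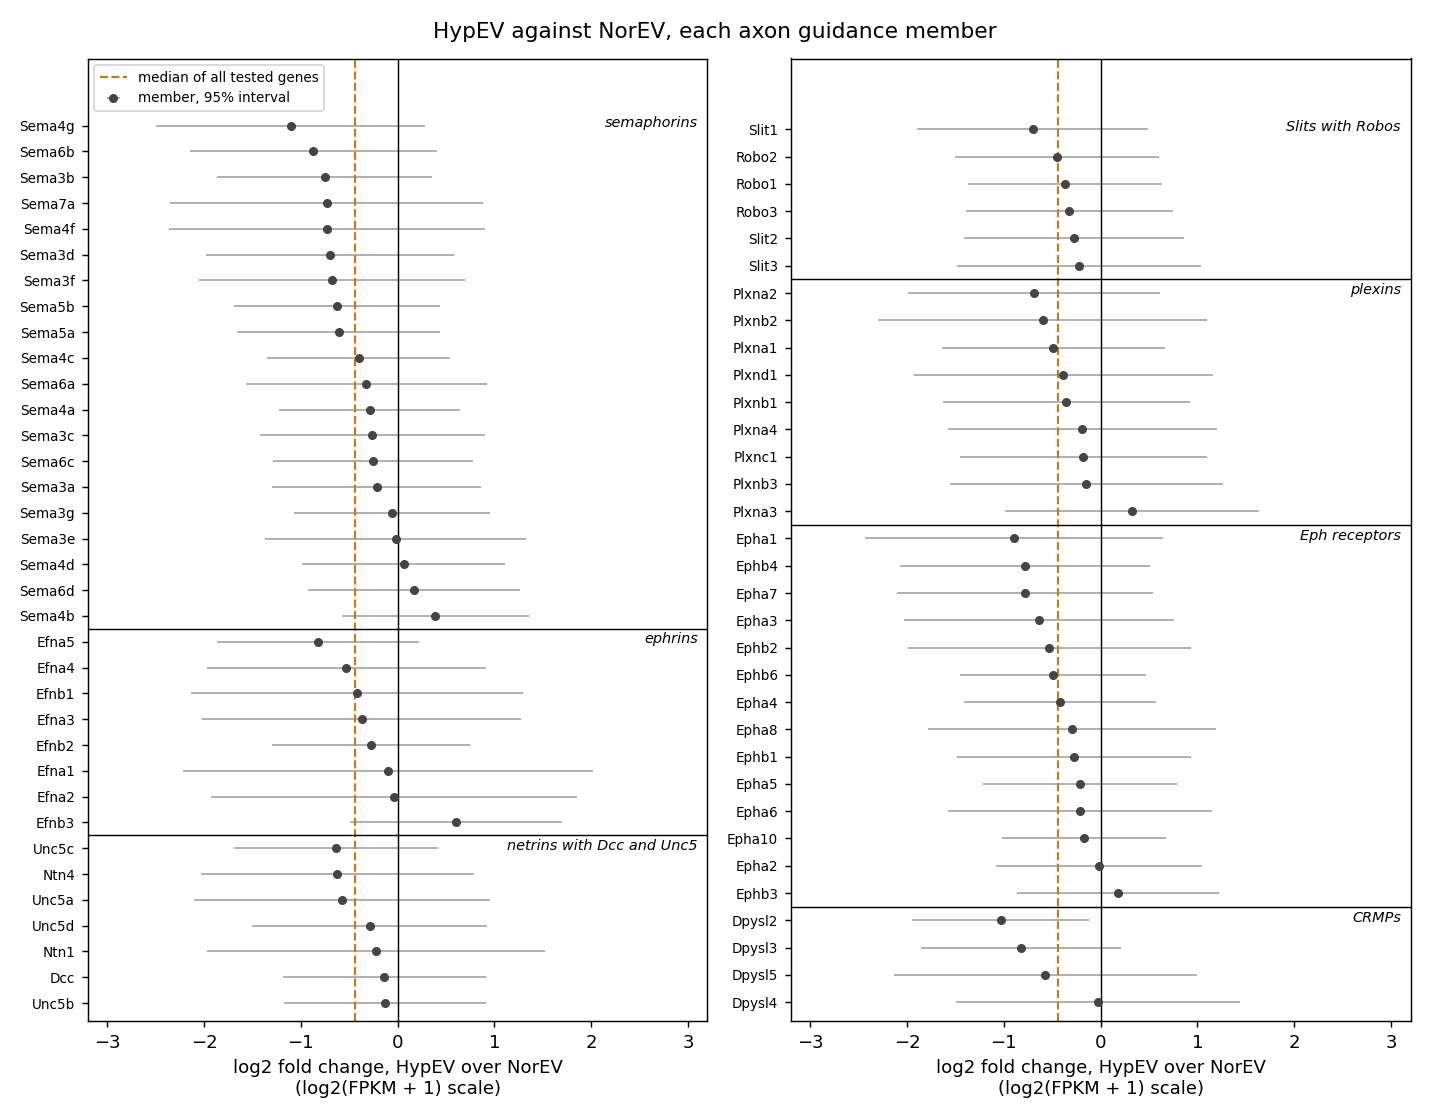
Log2 fold change of each member, HypEV over NorEV on the log2(FPKM + 1) scale, with its 95% interval from limma, ordered within families. The dashed line marks the median of all tested genes, -0.44; most points lie near it, and the interval of Dpysl2 (-1.95 to -0.12) is the one that does not reach 0.

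The groups did not overlap for 7 members, of which 6 were lower in HypEV (Dpysl2, Efna5, Sema3b, Sema5a, Epha7 and Ephb6) and 1 was higher (Efnb3). Over all tested genes the groups did not overlap for 11.9%, with 10.8% lower and 1.1% higher in HypEV, and over protein-coding genes for 13.7%, with 12.9% lower and 0.806% higher. Without HypEV 2 the count was 34 of 67 members tested (50.7%), against 34.8% of all tested genes and 44.1% of protein-coding ones. Without NorEV 1 it was 14 of 68 (20.6%), against 25.8% of all tested genes, and with centred libraries it was 4 (5.88%), against 11.3%.

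The CRMP members Dpysl2 to Dpysl5 had a median log2 fold change of -0.70, with all 4 below 0 (3 of 4 with centred libraries). Crmp1, which is no member, had 10.1, 21.5 and 4.71 FPKM in HypEV 1, 2 and 3, and 13.8, 10.7 and 13.6 FPKM in NorEV 1, 2 and 3, with overlapping groups and a log2 fold change of -0.27. Over all 5 genes the median was -0.57. Dpysl2 (chr14:66802864-66868688, minus strand), whose product CRMP2 binds tubulin and promotes axon growth, had 8.16, 9.03 and 7.03 FPKM in HypEV 1, 2 and 3, and 14.2, 22.1 and 17.0 FPKM in NorEV 1, 2 and 3. All 3 HypEV libraries were below all 3 NorEV libraries. Its mean was 8.07 ± 1.0 FPKM in HypEV and 17.8 ± 4.0 FPKM in NorEV (SD, n = 3 each). Its log2 fold change was -1.03 ± 0.40 (SE; limma adjusted p = 0.720). The values rest on 79, 59 and 42 reads in HypEV and 70, 141 and 115 reads in NorEV. With centred libraries the log2 fold change of Dpysl2 was -0.58, and over all alternatives its limma adjusted p ran from 0.275 to 0.969.

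The other CRMP members did not separate the groups. Dpysl3, an actin-bundling relative expressed in young neurons, had 6.64, 12.9 and 5.80 FPKM in HypEV and 15.2, 17.5 and 12.3 FPKM in NorEV, with a log2 fold change of -0.82 ± 0.45 (SE; limma adjusted p = 0.740; -0.37 with centred libraries). HypEV 2 lay just above NorEV 3 in this gene. Dpysl4 had 2.34, 11 and 6.31 FPKM in HypEV and 3.05, 6.74 and 8.93 FPKM in NorEV, and its log2 fold change of -0.03 turned to 0.42 with centred libraries. Dpysl5, chosen after its values were seen, had 3.06, 15.7 and 4.67 FPKM in HypEV and 4.41, 14.7 and 13.9 FPKM in NorEV. Within each group, its libraries differed by more than the group means did.

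Among the 20 semaphorins, 17 had a log2 fold change below 0, against 9 with centred libraries, and 0 passed. Sema4g, a class 4 member, had the lowest log2 fold change of all members, -1.11 ± 0.61 (SE; limma adjusted p = 0.740), with 2.67, 12.2 and 2.66 FPKM in HypEV and 14.1, 9.48 and 10.1 FPKM in NorEV. HypEV 1 and 3 were far below the NorEV libraries and HypEV 2 was within them. With centred libraries the log2 fold change of Sema4g was -0.66. Without HypEV 2 it was -1.72 (limma adjusted p = 0.192), and over all alternatives the adjusted p ran from 0.192 to 0.969. Sema3b, a secreted ligand known as a tumour suppressor, had 4.08, 5.24 and 5.07 FPKM in HypEV and 11.2, 5.36 and 10.9 FPKM in NorEV, so that NorEV 2 lay close to the HypEV libraries. Sema6b, a transmembrane ligand of A-type plexins, had 4.61, 6.47 and 3.35 FPKM in HypEV and 11.2, 4.60 and 15.3 FPKM in NorEV, which overlapped. Sema5b, which inhibits axons and synapses, had 4.52, 10.1 and 7.33 FPKM in HypEV and 8.67, 13.1 and 12.8 FPKM in NorEV, which also overlapped.

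Ephrins held both the separated member that was higher in HypEV and one that was lower. Efna5 had 6.60, 8.06 and 8.45 FPKM in HypEV 1, 2 and 3, and 22.0, 14.4 and 9.13 FPKM in NorEV 1, 2 and 3. Its log2 fold change was -0.82 ± 0.46 (SE; limma adjusted p = 0.741), and NorEV 3 came near to the HypEV values. The log2 fold change of Efna5 was -0.37 with centred libraries, -0.42 with limma-voom and -0.53 without NorEV 1. Efnb3 (chr11:69554092-69560205, minus strand), chosen after its values were seen, encodes a transmembrane ephrin of the nervous system that stops corticospinal axons from crossing back over the midline. It had 6.01, 8.26 and 6.42 FPKM in HypEV and 3.16, 4.45 and 5.05 FPKM in NorEV, from 41, 38 and 27 reads in HypEV and 11, 20 and 24 reads in NorEV.

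All 3 HypEV libraries were above all 3 NorEV libraries for Efnb3. Its log2 fold change was 0.60 ± 0.48 (SE; limma adjusted p = 0.797), and 1.06 with centred libraries (limma adjusted p = 0.831). Over all alternatives the adjusted p of Efnb3 ran from 0.599 to 0.969. It was the member of smallest p in that fit and did not pass there either. The other members with a log2 fold change above 0 were the semaphorins Sema4b, Sema4d and Sema6d, the plexin Plxna3 and the Eph receptor Ephb3, none of which passed.

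Among the 31 receptors, 29 had a log2 fold change below 0, against 12 with centred libraries, and 0 passed. Epha7, an ephrin-A receptor that limits cortical progenitors and patterns thalamic input, had 1.38, 5.54 and 5.27 FPKM in HypEV and 6.92, 8.39 and 5.65 FPKM in NorEV. Ephb6, a receptor without kinase activity, had 6.33, 8.64 and 12.1 FPKM in HypEV and 13.1, 12.2 and 12.8 FPKM in NorEV. In both receptors the groups were apart by a small margin, between HypEV 2 and NorEV 3 for Epha7 and between HypEV 3 and NorEV 2 for Ephb6. Ephb4, a receptor best known from veins, had 2.58, 12 and 4.88 FPKM in HypEV and 8.65, 10.6 and 11.4 FPKM in NorEV. Unc5c, a netrin receptor for repulsion, had 5.76, 12.2 and 5.73 FPKM in HypEV and 11.1, 14.7 and 11 FPKM in NorEV. HypEV 1 and 3 lay below the NorEV range in Ephb4 and Unc5c, while HypEV 2 lay above it in Ephb4 and within it in Unc5c.

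Plexins gave the same picture of overlap. Plxna2 had 2.33, 9.77 and 5.42 FPKM in HypEV and 6.13, 9.998 and 11.2 FPKM in NorEV. Plxnd1, the receptor of Sema3e, had 0.811, 4.81 and 2.52 FPKM in HypEV and 1.85, 4.30 and 4.46 FPKM in NorEV. Of the 9 plexins 8 had a log2 fold change below 0, against 3 with centred libraries, and all 9 had overlapping groups. Groups did not overlap for only 11.9% of all tested genes and 13.7% of protein-coding ones. With 9 genes this overlap does not set plexins apart.

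**Figure D4:**
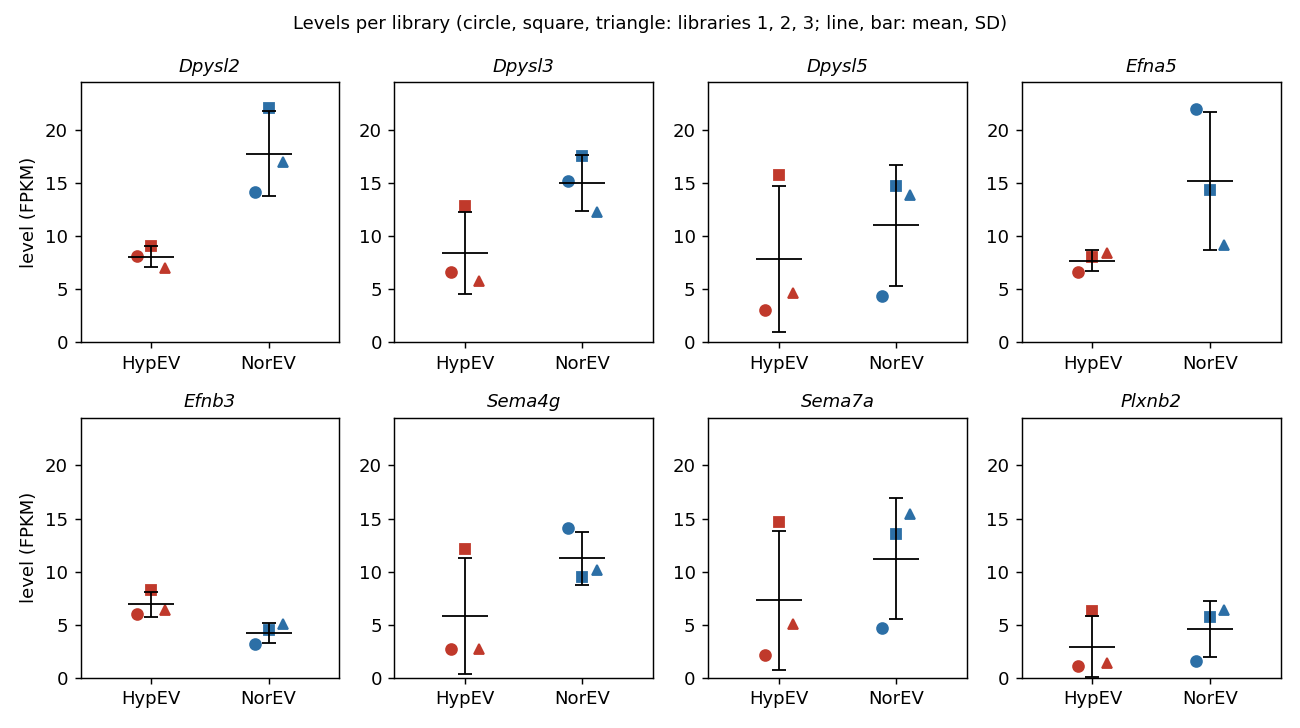
Levels of 8 members in each library, in FPKM on a shared linear axis, with HypEV in red and NorEV in blue; circles, squares and triangles are libraries 1, 2 and 3, and lines with bars are mean and SD (n = 3). Dpysl2, Efna5 and Efnb3 have groups that do not overlap, while Dpysl5, Sema7a and Plxnb2 are low in HypEV 1, HypEV 3 and NorEV 1.

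Several members followed the library more than the group. HypEV 1 was the lowest of the 6 libraries for 48 members (70.6%, against 56.5% of tested protein-coding genes), and HypEV 2 was the highest HypEV library for 58 (85.3%, against 71.3%). HypEV 1, HypEV 3 and NorEV 1, the libraries where Gm23935 held the largest shares, were all below the other libraries for 25 of 68 members, against 22.9% of all tested genes and 28.2% of tested protein-coding genes. They were all above the other libraries for 1 member, against 1.53% and 1.19%. Sema7a, Plxnb2 and Sema4f show this order and were chosen after their values were seen.

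Sema7a, a glycolipid-anchored semaphorin that promotes axon growth through integrins, had 2.12, 14.7 and 5.05 FPKM in HypEV 1, 2 and 3, and 4.72, 13.5 and 15.4 FPKM in NorEV 1, 2 and 3. Plxnb2, the receptor of Sema4c in cortical development, had 1.10, 6.27 and 1.42 FPKM in HypEV and 1.57, 5.75 and 6.38 FPKM in NorEV. Sema4f, a class 4 semaphorin found at glutamatergic synapses, had 2.17, 19.1 and 4.63 FPKM in HypEV and 6.50, 13.7 and 13.9 FPKM in NorEV. In each of these genes, libraries of both groups stood at the low and at the high level. The part of the Gm23935 share in this order was not tested gene by gene.

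Genes that work with the members were given from a list of 69 co-receptors, adhesion molecules and signalling proteins of axon guidance, all of which were tested. Of these 0 passed, 61 had a log2 fold change below 0 and 8 above 0 (30 and 39 with centred libraries), and the median was -0.43. At an unadjusted p under 0.05 limma gave 2 of the 69, Ablim3 and Mical2, against 6.76% of all tested genes and 4.41% of protein-coding ones. The groups did not overlap for 4 partners, all lower in HypEV, against 11.9% of all tested genes and 13.7% of protein-coding ones. Ablim3, an actin-binding LIM protein, had 6.39, 5.34 and 8.69 FPKM in HypEV 1, 2 and 3, and 14.5, 15.1 and 15.5 FPKM in NorEV 1, 2 and 3. Its groups did not overlap, and its log2 fold change was -1.06 ± 0.41 (SE; limma adjusted p = 0.720). It was -0.61 with centred libraries and -0.70 with quantile normalization.

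Mical2, of a family of actin-oxidising enzymes of which some bind plexins, had 4.20, 9.13 and 6.47 FPKM in HypEV and 16.5, 13.4 and 13.0 FPKM in NorEV, which did not overlap. Mical3, of the same family, had 11.6, 24.4 and 16.7 FPKM in HypEV and 24.1, 46.7 and 31.0 FPKM in NorEV, with HypEV 2 just above NorEV 1. Trem2, a microglial receptor that has been described as a partner of plexin A1, had 1.76, 7.81 and 4.75 FPKM in HypEV and 9.18, 9.76 and 12.9 FPKM in NorEV. These 3 genes had a limma adjusted p of 0.720 each. The neuropilin Nrp1, co-receptor of Sema3a and chosen after its values were seen, was above every member on average, with 16.01, 42.7 and 23.1 FPKM in HypEV and 36.9, 53.0 and 42.4 FPKM in NorEV.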

How the data were processed

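The authors deposited 1 table per library with FPKM for 53379 genes. The names of the tables mention HTSeq. Aligner, genome build and annotation are not given in the sources used here. Of the identifiers, 53274 were found in GENCODE M21 and 105 were not. With the longest transcript of each gene as its length, 95.7 to 96.1% of values above 0 were whole multiples of 1 read (tolerance 0.01 reads), and 62 of 68 members were whole in all libraries. The other members were kept in the read counts and shares as approximate reads. Shares have 95% Wilson intervals.

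HypEV was compared with NorEV by limma 3.58.1 (R 4.3.3, two-sided, eBayes with trend) on log2(FPKM + 1) without covariates. Genes averaging 1 FPKM or more were tested. The fit was also run on simulated data without the Gm23935 entries, which cannot show how it behaves when their share differs between libraries. Scaling, pseudocount, filter, variance trend, replicate block, limma-voom on recovered reads and leaving out each library were alternatives. Tables and plots were made in Python 3.11.15 (matplotlib 3.10.9, numpy 2.4.6, pandas 2.3.3). The members, the lists of partners and markers and the alternatives were chosen with earlier results of these data known. Members named with values were the 10 of smallest p, the 10 of highest level, and the highest, lowest and smallest-p member of each family. The 4 partners of smallest p were named too. Any other is said to be chosen after its values were seen, or is a member of a count that the text spells out. Exceptions are Sema3a, given as the highest of its class, and Crmp1, given as a relative of the CRMP members.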

Additional observations from a re-analysis of the deposited data

How the results depend on the processing

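No member and no partner passed under any alternative run. The 7 genes past the threshold over all genes became 0 with a pseudocount of 0.1 FPKM, without the filter, with centred libraries, without the variance trend or with the replicate block, and 60 with limma-voom on recovered reads, where 28 were protein-coding instead of 0. Leaving out 1 library gave 0 to 71 genes, of which 0 to 4 were protein-coding (4 without HypEV 2). Members at an unadjusted p under 0.05 numbered 1 in the reported fit (6.76% of all tested genes), 0 without the trend (6.39%) and 0 with the block (7.59%). With limma-voom the count was 2 (Efnb3 and Sema4b, against 7.12% of genes tested there), and with 1 library left out 0 to 7 (4.05 to 15.6%). Members whose groups did not overlap numbered 7, then 4 with centred libraries (11.3% of all tested genes) and 9 to 34 with 1 library left out (17.6 to 34.8% of all tested genes). The members' median log2 fold change exceeded that of all genes by 0.08, by 0.16 with limma-voom and by 0.021 to 0.082 with 1 library left out, the lowest without HypEV 3. The difference in the members' share of fragments, HypEV minus NorEV, was -0.0734 percentage points, 0.00236 outside the Gm23935 family and 0.00501 of protein-coding fragments. The cause was not tested, other than that these denominators leave out Gm23935. Same-numbered libraries deviated with correlations of 0.0446, 0.102 and -0.0582, and replicates 1 and 2 but not 3 correlated best with their own number. With 3 libraries per group these correlations cannot settle whether the numbers pair the libraries. The reported fit did not pair them, and the replicate block is the alternative that does.

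Of 394 alternative values for the 29 named genes, 350 kept direction and side of the threshold, 0 passed and 44, in 12 genes, changed sign. Centring moves the median of all genes from -0.44 to 0.01. With it the log2 fold changes were 0.31 for Dcc, 0.42 for Dpysl4, 0.41 for Efna2, 0.28 for Epha10, 0.15 for Epha8, 0.18 for Ephb1, 0.23 for Ntn1, 0.064 for Plxnd1, 0.13 for Robo3, 0.43 for Sema3e, 0.16 for Sema4a and 0.049 for Sema4c. With quantile normalization they were 0.28 for Dcc, 0.39 for Dpysl4, 0.49 for Efna2, 0.25 for Epha10, 0.39 for Epha8, 0.11 for Ephb1, 0.55 for Ntn1, 0.16 for Plxnd1, 0.086 for Robo3, 0.48 for Sema3e and 0.070 for Sema4a. With limma-voom they were 0.35 for Dpysl4, 0.10 for Efna2, 0.28 for Epha10, 0.061 for Epha8, 0.12 for Ephb1, 0.092 for Robo3, 0.37 for Sema3e, 0.065 for Sema4a and 0.015 for Sema4c. With 1 library left out they ran from -0.33 to 0.13 for Dcc, -0.46 to 0.47 for Dpysl4, -0.50 to 0.41 for Efna2, -0.54 to 0.17 for Ephb1, -0.86 to 0.25 for Ntn1, -0.79 to 0.054 for Plxnd1 and -0.26 to 0.30 for Sema3e. Members with a mean under 5 FPKM have no value under that filter, and members whose reads were not whole have none with limma-voom. Depth limits single members: intervals of the log2 fold change are wide at 0 to 243 reads.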
